A study of Mus musculus with 15 samples.

Results

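The inhibitory receptors of T cells were followed here at the level of mRNA as 10 genes chosen by name, out of 55536 genes of the count table that matched the GENCODE M21 annotation. They were Pdcd1 (PD-1), Ctla4, Lag3, Havcr2 (TIM-3), Tigit, Cd160, Btla, Entpd1 (CD39), Cd200 and Cd5, and all 10 passed the filter on low counts. Most of these proteins appear or increase on the surface of T cells after antigen receptor signalling, whereas BTLA and CD5 are also present on resting cells. Most bind ligands on other cells and damp further signalling through phosphatases or by competing for shared ligands. Sustained, combined display of several of them is a known feature of exhausted CD8+ T cells, whereas single members such as PD-1 also rise briefly in ordinary activation. The label receptor is loose for 2 of the 10, because CD39 is an enzyme that degrades extracellular ATP and CD200 is itself the ligand of an inhibitory receptor found mainly on myeloid cells.

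The 15 libraries were poly(A) RNA from CD8+ T cells of the OT-I line on C57BL/6J, whose transgenic antigen receptor recognises the ovalbumin peptide SIINFEKL. In the Naive group (5 libraries) the cells were purified from OT-I mice that were not used for transfer. In the Ag group (5 libraries) OT-I cells had been transferred into wild-type C57BL/6J recipients given the peptide with control rat IgG, and in the Ag+Costim group (5 libraries) the recipients received the peptide with agonist antibodies to OX40 (CD134) and 41BB (CD137), which are costimulatory receptors of the TNF receptor family. Transferred cells were collected from spleen and lymph nodes at day 4 by the labels and sorted. The methods describe OT-I donors that lacked Rag1 or Rag2, so that donors had no B cells of their own, while the wild-type hosts kept theirs. The labels number the libraries but do not say whether each came from 1 animal, so the p-values measure only the spread between these libraries. Both comparisons with Naive share the same 5 Naive libraries.

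Total counts were 4865952 in Ag 3 and between 10479358 and 25280667 in the other 14 libraries. Ag 3 was not the lowest in sequenced reads, at 28748197 beside 24713497 in Ag+Costim 2. It had the most genes with a count, 44408, with 37412 in Ag 1 next. Lane 2 held the whole Ag group together with Ag+Costim 1 to 3, lane 3 held the whole Naive group with Ag+Costim 4 and 5, and therefore lane and group cannot be told apart between Ag and Naive. CD8 T cell markers were abundant in every library, with Cd3e, Cd3d, Cd3g, Cd8a, Cd8b1, Trac and Lck together at 4869 to 9773 CPM (counts scaled to 1 shared library total), and the summed level of Cd4 and Foxp3 was at most 5.34 CPM. Some libraries stood apart from others of their label. Naive 5 carried 429 CPM of the neutrophil gene S100a8 and 331 CPM of the proliferation gene Mki67, against at most 40.2 and 108 CPM in the other Naive libraries. Ag 1 and Ag 4 carried 10.8 and 19.8 CPM of Gzmb (granzyme B), whereas Ag 2, Ag 3 and Ag 5 carried 411 to 690 CPM. The B cell gene Ms4a1 was at 27.7, 72.8 and 29.1 CPM in Ag 1, Ag 3 and Ag 4 and at 0.158 to 5.64 CPM elsewhere. The NK cell genes Ncr1 and Klrb1c summed to 9.65 to 43.6 CPM in Naive, 1.10 to 23.2 CPM in Ag and at most 1.80 CPM in Ag+Costim, and 4 erythroid genes summed to 666 CPM in Ag 3 and at most 91.1 CPM elsewhere. The recorded input amount, for which no unit was given, was 1.4 for Ag 2 and 1.8 for Ag 5 and 7 to 10 for all other libraries. In bulk RNA, fewer cells of a type and less RNA per cell cannot be told apart.

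Compared per length as TPM, in which transcript counts are divided by transcript length, Cd5 had the highest mean level of the 10 genes in each group, at 188 ± 29.1 TPM for Naive, 183 ± 53.3 for Ag and 164 ± 9.74 for Ag+Costim (mean ± SD, n = 5). Cd160 came next in Naive, at 83.1 ± 19.6 TPM, and its range there did not overlap that of Cd5. Below it, Pdcd1 at 33.9 ± 37.4 TPM and Btla at 33.1 ± 7.07 TPM overlapped in Naive, and the other 6 genes had means of 0.960 to 9.78 TPM in which each range overlapped that of the next in order. In Ag+Costim, Cd5, Cd160 (154 ± 20.1 TPM) and Pdcd1 (149 ± 21.9 TPM) overlapped each other and lay above the other 7 genes without overlap. Entpd1 was lowest in every group, with means of 0.960, 2.85 and 1.75 TPM. The spread between libraries was uneven, since Cd200 ranged from 19.3 to 332 TPM within Ag and from 16.8 to 33.2 TPM within Ag+Costim.

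**Figure D1:**
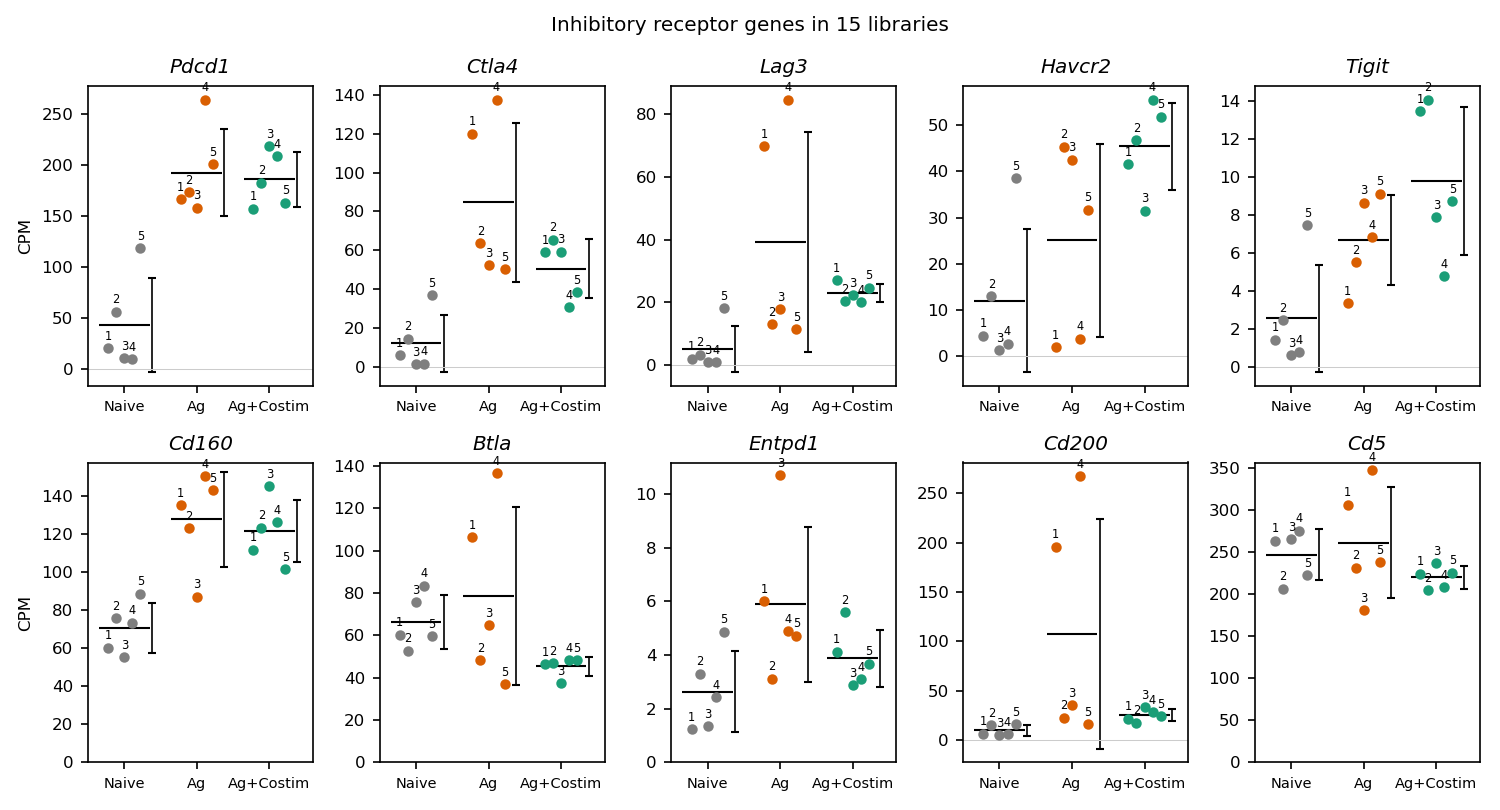
CPM (vertical axis, linear) of the 10 genes in the 15 libraries, 1 panel per gene, with libraries numbered within Naive, Ag and Ag+Costim. Horizontal lines are group means and bars SD (n = 5). All Ag libraries lie above all Naive libraries for Pdcd1, Ctla4 and Cd200, and Ag 1 and Ag 4 lie above the other Ag libraries for Cd200, Lag3, Ctla4 and Btla and below them for Havcr2.

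The first question the design puts to these genes is how they differ between naive cells and cells that met antigen, with or without costimulation. Between Ag and Naive, 5 of the 10 genes were higher (Pdcd1, Ctla4, Lag3, Cd160 and Cd200), beside 3.05% of all 17366 genes tested, and 0 were lower, beside 3.66%. Between Ag+Costim and Naive, 5 were higher (Pdcd1, Ctla4, Lag3, Tigit and Cd160), beside 21.0% of all genes, and 0 were lower, beside 23.6%. At an unadjusted p under 0.05 each comparison had 7 of the 10, beside 28.7% of all genes in Ag against Naive and 55.7% in Ag+Costim against Naive. The 10 genes were chosen with earlier results of these data known, so setting them beside all genes is a description only. Genes were called by edgeR's quasi-likelihood test at a Benjamini-Hochberg adjusted p under 0.05. DESeq2 called 6 members in Ag against Naive, where 15.8% of all genes were called, and 6 in Ag+Costim against Naive, where 40.6% were. The median log2 fold change of the 10 genes was 1.35 in Ag against Naive and 1.77 in Ag+Costim against Naive, where the median of all genes was 0.08 and -0.08.

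**Figure D2:**
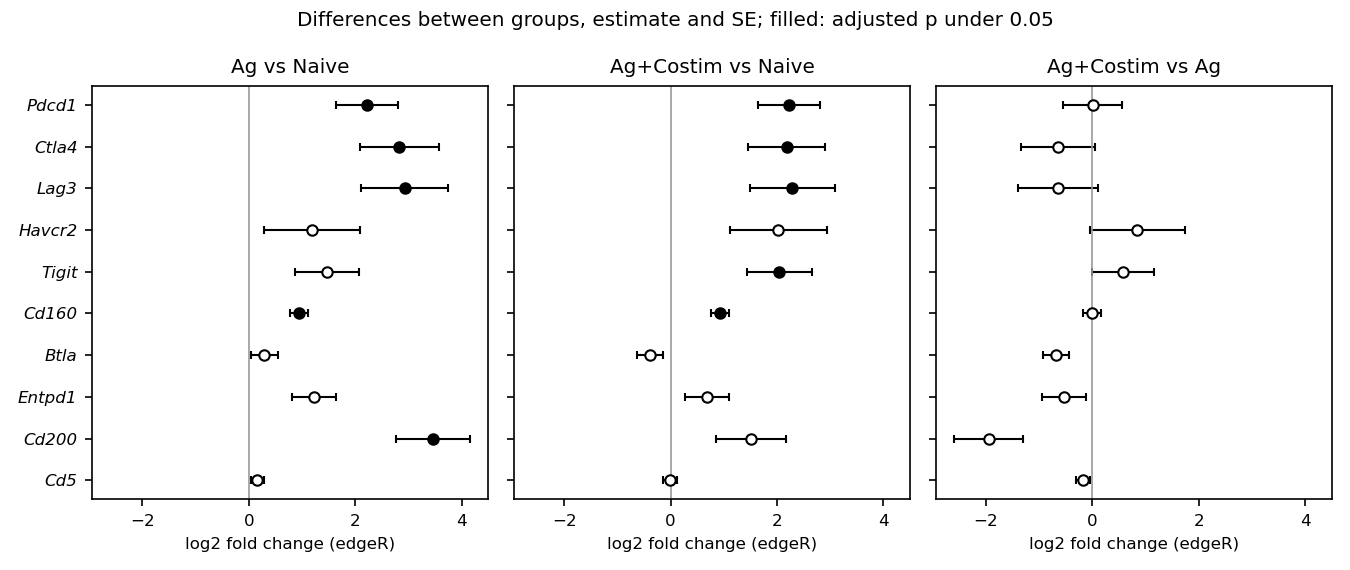
Log2 fold change (horizontal axis) with SE for the 10 genes in the 3 comparisons, from edgeR. Filled points passed an adjusted p under 0.05. Filled points appear in the 2 comparisons with Naive, 5 in each, and in none for Ag+Costim vs Ag.

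PD-1, encoded by Pdcd1 (chr1:94038305-94052553, minus strand of GRCm38), recruits the phosphatase SHP-2 when it binds PD-L1 or PD-L2. Pdcd1 was at 19.7, 55.9, 10.5, 9.07 and 118 CPM in Naive 1 to 5, at 166, 173, 158, 264 and 200.5 CPM in Ag 1 to 5 and at 157, 182, 218, 209 and 163 CPM in Ag+Costim 1 to 5. Every library of both antigen groups was above every Naive library, with Naive 5 nearest to them. The log2 fold change was 2.22 ± 0.59 (SE) in Ag against Naive (4.66-fold, edgeR adjusted p = 0.0377) and 2.23 ± 0.59 in Ag+Costim against Naive (4.69-fold, adjusted p = 0.0126). Without Naive 5 these values were 3.13 and 3.15. The call in Ag against Naive was lost without Ag 2, Ag 5 or any 1 of Naive 1 to 4 (adjusted p up to 0.107).

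Ctla4 (chr1:60887000-60915832, plus strand) encodes CTLA-4, which takes CD80 and CD86 away from the activating receptor CD28. Its level was 5.90, 14.4, 1.19, 1.45 and 36.8 CPM in Naive 1 to 5, 120, 63.5, 52.4, 138 and 50.3 CPM in Ag 1 to 5 and 59.1, 65.4, 59.2, 30.5 and 38.4 CPM in Ag+Costim 1 to 5. All Ag libraries were above all Naive libraries, and Ag+Costim 4 was below Naive 5. Within Ag+Costim, libraries 1 to 3, in lane 2 with Ag, were above libraries 4 and 5, in lane 3 with Naive. The log2 fold change was 2.83 ± 0.75 in Ag against Naive (7.12-fold, edgeR adjusted p = 0.0379) and 2.18 ± 0.73 in Ag+Costim against Naive (4.54-fold, adjusted p = 0.0289). Without Naive 5 these values were 3.98 and 3.34. The first call was lost without Ag 2, Ag 5 or any 1 of Naive 1 to 4 (adjusted p up to 0.109), and the second without Naive 1, Naive 4 or any 1 of Ag+Costim 1 to 3 (up to 0.0732). Its neighbours on chromosome 1 are the related receptor genes Cd28, 113.6 kb away, and Icos, 62.1 kb away, with no protein-coding gene between. Both encode activating receptors. Icos was higher in both comparisons, by 0.96 ± 0.19 and 0.67 ± 0.19 on the log2 scale (edgeR adjusted p = 0.0139 and 0.0160), and Cd28 was higher in Ag against Naive by 0.58 ± 0.15 (adjusted p = 0.0358).

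LAG-3, a relative of CD4 that binds MHC class II, is encoded by Lag3 (chr6:124904361-124911705, minus strand). Lag3 was at 1.92, 3.22, 0.910, 0.838 and 18.1 CPM in Naive 1 to 5, at 69.9, 13.0, 17.7, 84.7 and 11.4 CPM in Ag 1 to 5 and at 26.9, 20.4, 22.2, 20.1 and 24.6 CPM in Ag+Costim 1 to 5. Naive 5 was above Ag 2, Ag 3 and Ag 5 but lay below all Ag+Costim libraries. The log2 fold change was 2.93 ± 0.82 in Ag against Naive (7.64-fold, edgeR adjusted p = 0.0463) and 2.29 ± 0.80 in Ag+Costim against Naive (4.89-fold, adjusted p = 0.0339). Without Naive 5 the values were 4.57 and 3.94. In Ag against Naive Lag3 passed in 2 of the 10 fits that left out 1 library, those without Ag 3 or Naive 5, and in Ag+Costim against Naive in 2 of 10, those without Ag+Costim 4 or Naive 5 (adjusted p up to 0.127 and 0.0811 in the others). Cd4, which lies 16.1 kb from Lag3, stayed at 0 to 4.52 CPM across the 15 libraries and passed the test in neither comparison.

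TIM-3 is encoded by Havcr2 (chr11:46454935-46481255, plus strand) and is a receptor of effector and exhausted T cells with several proposed ligands, galectin-9 and CEACAM1 among them. Havcr2 was at 4.39, 13.0, 1.31, 2.67 and 38.5 CPM in Naive 1 to 5, at 1.91, 45.4, 42.5, 3.75 and 31.7 CPM in Ag 1 to 5 and at 41.6, 46.8, 31.5, 55.6 and 51.9 CPM in Ag+Costim 1 to 5. Ag 1 and Ag 4 were at the level of Naive 1, Naive 3 and Naive 4, whereas Naive 5 was within the range of Ag+Costim. The gene did not pass the test in Ag against Naive (log2 fold change 1.18 ± 0.91, edgeR adjusted p = 0.376) or in Ag+Costim against Naive (2.03 ± 0.92, adjusted p = 0.0818). Without Naive 5 the second comparison passed, at 3.30 with an adjusted p of 0.00985.

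Tigit (chr16:43648867-43664146, minus strand) encodes a receptor for CD155, a ligand that it shares with the activating receptor CD226. It ranged from 0.633 to 7.44 CPM in Naive (median 1.44), from 3.34 to 9.11 CPM in Ag (median 6.81) and from 4.79 to 14.05 CPM in Ag+Costim (median 8.72). The 4 lowest values were Naive 1 to 4, and Naive 5 overlapped both other groups. Tigit was higher in Ag+Costim than in Naive by 2.05 ± 0.61 on the log2 scale (4.13-fold, edgeR adjusted p = 0.0193), and its value in Ag against Naive was 1.47 ± 0.61 (adjusted p = 0.133). Without Naive 5 the value in Ag against Naive was 2.50 with an adjusted p of 0.00490, and that in Ag+Costim against Naive was 3.08. The latter call was lost without Naive 1 or Naive 4 (adjusted p up to 0.0538).

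CD160 and BTLA both bind HVEM, the product of Tnfrsf14. Cd160 (chr3:96798763-96829351, minus strand) was at 60.4, 75.8, 55.3, 73.5 and 88.7 CPM in Naive 1 to 5, at 135, 123, 87.1, 151 and 143 CPM in Ag 1 to 5 and at 112, 123, 145, 126 and 102 CPM in Ag+Costim 1 to 5. All Ag+Costim libraries were above all Naive libraries, and among Ag libraries only Ag 3, the library of lowest total counts, was below Naive 5. The difference from Naive was 0.94 ± 0.17 on the log2 scale in Ag (1.92-fold, edgeR adjusted p = 0.0106) and 0.93 ± 0.17 in Ag+Costim (adjusted p = 0.00335). Cd160 passed in all 10 fits that left out 1 library in each of these 2 comparisons.

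Btla (chr16:45224315-45257670, plus strand), which is also transcribed in B cells, was at 60.4, 52.8, 75.7, 83.4 and 59.7 CPM in Naive 1 to 5, at 106, 48.3, 64.7, 137 and 36.9 CPM in Ag 1 to 5 and at 46.3, 46.9, 37.5, 48.3 and 48.2 CPM in Ag+Costim 1 to 5. Every Ag+Costim library was below every Naive library, and the Ag libraries lay on both sides of the Naive range. Neither difference from Naive passed the test (0.29 ± 0.25 in Ag, edgeR adjusted p = 0.419, and -0.39 ± 0.25 in Ag+Costim, adjusted p = 0.195). Tnfrsf14, the gene of the shared ligand, was lower in Ag+Costim than in Naive by -1.74 ± 0.47 on the log2 scale (adjusted p = 0.0141).

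Cd200 (chr16:45382135-45409053, minus strand) lies 124.5 kb from Btla with no protein-coding gene between them and is also transcribed in B cells. It was at 6.45, 14.9, 4.87, 5.87 and 15.7 CPM in Naive 1 to 5, at 196, 22.5, 34.9, 267 and 16.2 CPM in Ag 1 to 5 and at 21.4, 17.5, 33.3, 28.0 and 23.8 CPM in Ag+Costim 1 to 5. All libraries of both antigen groups were above all Naive libraries, but Ag 5 exceeded Naive 5 by less than 1 CPM, and Ag 1 and Ag 4 were far above the rest. The log2 fold change of 3.47 ± 0.70 in Ag against Naive (11.0-fold, edgeR adjusted p = 0.0151) was the highest of the 10 genes in that comparison, and the value in Ag+Costim against Naive was 1.51 ± 0.66 (adjusted p = 0.0715). The former was 2.80 without Ag 4, and its call was lost without Naive 1, Naive 3 or Naive 4 (adjusted p up to 0.0526).

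CD39, the ectonucleotidase encoded by Entpd1 (chr19:40612366-40741602, plus strand), starts the conversion of extracellular ATP to adenosine. Entpd1 was at 1.24 to 4.87 CPM in Naive, 3.11 to 10.7 CPM in Ag, where Ag 3 was highest, and 2.87 to 5.59 CPM in Ag+Costim. The groups overlapped, and neither difference from Naive passed the test (1.22 ± 0.42 in Ag, edgeR adjusted p = 0.0840, and 0.68 ± 0.41 in Ag+Costim, adjusted p = 0.175). Without Naive 5 both passed (1.61 with an adjusted p of 0.0153, and 1.09 with an adjusted p of 0.0326).

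CD5 is set during thymic selection in proportion to self-reactivity and binds negative regulators of the T cell receptor. Cd5 (chr19:10717116-10739002, minus strand) was at 206 to 275 CPM in Naive libraries, 181 to 348 CPM in Ag libraries and 204 to 237 CPM in Ag+Costim. The 3 ranges overlapped. The log2 differences from Naive were 0.16 ± 0.13 in Ag (edgeR adjusted p = 0.389) and -0.01 ± 0.13 in Ag+Costim (adjusted p = 0.945), the smallest of the 10 genes in both comparisons.

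Counted by ranges alone, 3 genes did not overlap between Ag and Naive (Pdcd1, Ctla4 and Cd200), where 3.63% of all genes did not, and 5 did not overlap between Ag+Costim and Naive (Pdcd1, Lag3, Cd160, Cd200 and Btla), close to the 45.6% of all genes. The calls changed when single libraries were left out and when lane was a term in the fit. In Ag against Naive the count of 5 fell to 1 without Naive 1, Naive 3 or Naive 4, and to 2 without Naive 2, Ag 2 or Ag 5, and no gene of the table passed with lane as a term. Ag and Naive share no lane, so that term rests on Ag+Costim alone and cannot tell a lane difference from lost information. The share of all genes called moved too, from 1.42% without Naive 1 to 21.5% without Naive 5. In Ag+Costim against Naive the count was 2 without Naive 1 or Naive 4, 3 without Ag+Costim 1, 2 or 3, and 8 without Naive 5, where the share of all genes ran from 21.6% to 51.0%. Within lane 3, where 34.7% of all genes passed, Cd160 (log2 fold change 0.86, edgeR adjusted p = 0.0282) and Cd200 (1.61, adjusted p = 0.0381) passed, and Pdcd1 was at 2.27 with an adjusted p of 0.0832.

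The second question is what costimulation adds to antigen. Between Ag+Costim and Ag, edgeR called 0 of the 10 genes, beside 0.0346% of all genes (6 of 17366), and 2 had an unadjusted p under 0.05, Cd200 and Btla, beside 26.8% of all genes. Cd200 was at a mean of 24.8 ± 6.09 CPM in Ag+Costim and 107 ± 116 CPM in Ag (SD, n = 5), with a log2 fold change of -1.95 ± 0.66 (edgeR adjusted p = 0.0959). Btla was at 45.5 ± 4.497 and 78.6 ± 41.8 CPM, with a log2 fold change of -0.68 ± 0.25 (adjusted p = 0.1095). DESeq2 called 1 of the 10, Cd200 (adjusted p = 0.0156), where it called 20.7% of all genes. Voom with sample quality weights called more of the 10, and also called most of all genes tested. Without Ag 5, edgeR called 2, Cd200 and Btla, both lower in Ag+Costim, beside 19.7% of all genes, and without Ag 2 it called Cd200, beside 14.8%. The ranges of all 10 genes overlapped between Ag+Costim and Ag, where 7.04% of all genes did not overlap.

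Of the others, Pdcd1 and Cd160 had the smallest log2 differences between Ag+Costim and Ag, 0.01 ± 0.56 and -0.01 ± 0.17 (edgeR adjusted p = 0.993 and 0.965). Ctla4 and Lag3 were at -0.65 ± 0.70 and -0.64 ± 0.76, and Entpd1 and Cd5 at -0.53 ± 0.41 and -0.17 ± 0.13. Havcr2 and Tigit had positive values, 0.85 ± 0.89 and 0.57 ± 0.59. The SE was 0.56 to 0.89 for Pdcd1, Ctla4, Lag3, Havcr2 and Tigit, against 0.13 to 0.17 for Cd5 and Cd160. The median of the 10 values was -0.35, beside -0.10 for all genes. In the 8 libraries of lane 2 alone, 0 of the 10 genes and 0 of all genes passed, and Cd200 was at -1.99.

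Several of these genes were more spread among Ag libraries than among Ag+Costim libraries. The highest Ag library exceeded the lowest by 16.5-fold for Cd200, 7.40-fold for Lag3 and 23.8-fold for Havcr2, and the same ratios among Ag+Costim libraries were 1.91, 1.34 and 1.77. For Cd5 and Cd160 the ratio within Ag was 1.92 and 1.73. Ag 1 and Ag 4 were the highest libraries of all 15 for Cd200, Lag3, Ctla4, Btla and Cd5, and were the lowest of Ag for Havcr2. Lag3 in Ag 2, Ag 3 and Ag 5 was below all Ag+Costim libraries, and their Havcr2 was within the Ag+Costim range. Ag 1 and Ag 4 were also the Ag libraries of lowest Gzmb, and Il2ra (the high-affinity IL-2 receptor chain) was at 2.9 and 3.7 CPM there against 26.9 to 33.9 CPM in the other Ag libraries. Il7r, the IL-7 receptor chain of resting and memory cells, was at 221 and 273 CPM in Ag 1 and Ag 4 and at 84.5 to 95.3 CPM in the other Ag libraries. Mki67, at 129 and 119 CPM in Ag 1 and Ag 4, was also below the other Ag libraries. The activation list did not all go this way. Ifng was at 12.0 and 14.0 CPM in Ag 1 and Ag 4, against 4.15 to 9.39 CPM in the other Ag libraries. Cd44, at 74.2 and 79.9 CPM, was within the range of the others, 52.0 to 97.6 CPM.

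**Figure D3:**
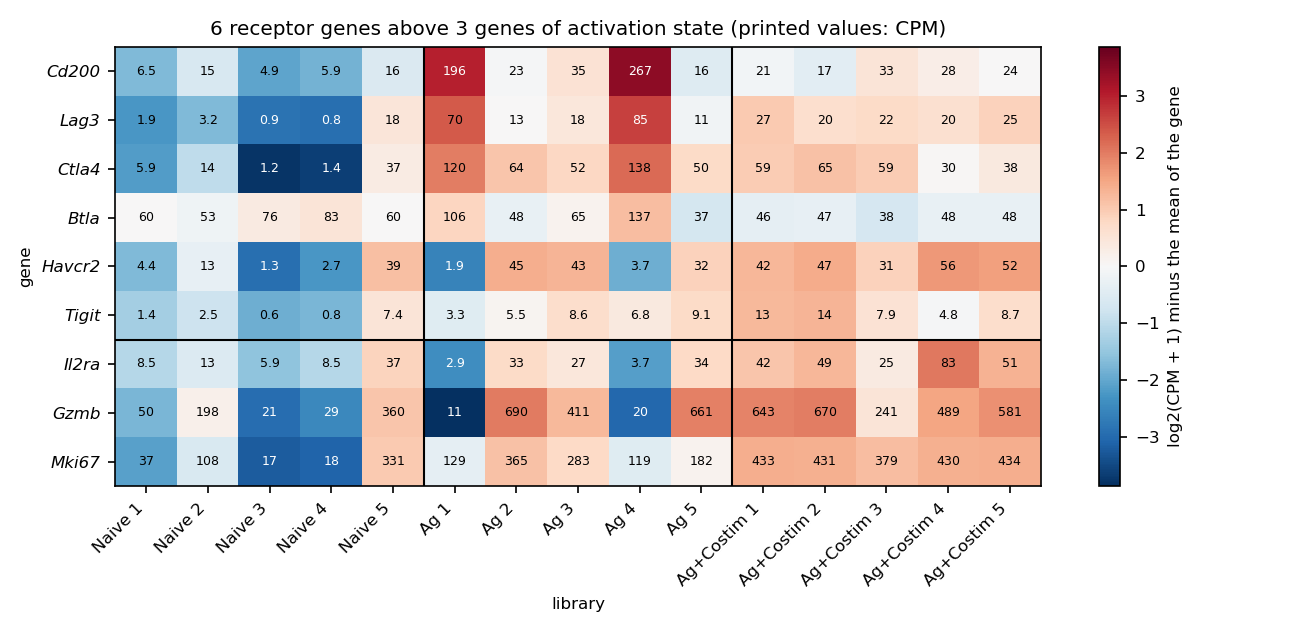
Levels of 6 receptor genes and of 3 genes of activation state in each library. Colour is log2(CPM + 1) minus the gene's mean over 15 libraries and the printed values are CPM. Ag 1 and Ag 4 show high Cd200, Lag3, Ctla4 and Btla with low Havcr2, Il2ra and Gzmb, and Naive 5 has higher Havcr2, Lag3 and Gzmb than the other Naive libraries.

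B cell RNA, class II RNA and input amount divided the Ag libraries in other ways. B cell markers (7 genes) summed to 1394, 1279 and 1621 CPM in Ag 1, Ag 3 and Ag 4 and to 581 and 642 CPM in Ag 2 and Ag 5, against 521 to 798 CPM in Ag+Costim and 589 to 1034 CPM in Naive. Ighm made up most of each sum and did not pass in Ag against Naive (log2 fold change 0.08 ± 0.20), whereas 4 of the 6 B cell genes tested were higher there, namely Ms4a1 (5.04 ± 1.23), Igkc (4.79 ± 0.94), Cd79a (4.78 ± 0.96) and Cd22 (2.98 ± 0.71, edgeR adjusted p = 0.0136 to 0.0285 for the 4). In Ag+Costim against Naive 2 were higher, Igkc (3.93 ± 0.90) and Cd22 (2.04 ± 0.69). Ms4a1 was at 0.389 CPM in Ag 2 and 0.444 CPM in Ag 5. Ag 3 had the highest Cd79a and Ms4a1 of all libraries and Cd200 at 34.9 CPM, below Ag 1 and Ag 4. The 3 class II antigen presentation genes, H2-Aa, H2-Ab1 and Cd74, summed to 85.5 to 1374 CPM in Ag and were highest in Ag 3. The low input amounts fell on Ag 2 and Ag 5. These were the lowest Ag libraries by CPM for Cd200, Lag3, Btla and Entpd1, but not for Pdcd1, Ctla4, Havcr2, Tigit, Cd160 or Cd5. The part of B cell RNA and of input amount in the levels of the 10 genes was not tested.

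In the Naive group, Naive 5 was highest for Pdcd1, Ctla4, Lag3, Havcr2, Tigit, Cd160, Entpd1 and Cd200, and Naive 2 was second for all 8. Myeloid markers (7 genes) summed to 1005 CPM in Naive 5 and 165 CPM in Naive 2, and to 13.7, 39.3 and 53.1 CPM in Naive 1, Naive 3 and Naive 4. The neutrophil genes S100a8 and S100a9, at 429 and 403 CPM, made up most of the sum in Naive 5. Lyz2, Itgam and Cd68 were also highest in Naive 5 among Naive libraries, whereas Csf1r and Adgre1 were highest in Naive 2. Gzmb, like the myeloid sum, was highest in Naive 5, at 360 CPM, and next in Naive 2, at 198 CPM. Il7r was at 235 CPM in Naive 5 against 644 to 783 CPM in the other Naive libraries. Il2ra was at 36.6 against 5.93 to 13.1 CPM, and Cd44 at 70.5 against 20.8 to 43.8 CPM. The part of myeloid RNA and of activation state in the levels of the 10 genes was not tested. Leaving out both Naive 5 and Ag 3, a choice made after the data were seen, 7 of the 10 genes were called higher in Ag than in Naive, 8 in Ag+Costim than in Naive and 0 between Ag+Costim and Ag, beside 15.2%, 31.3% and 5.73% of all genes.

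Cd160 was the member with the clearest division between transcripts. Its counts were assigned to 2 protein-coding transcripts with separate first exons. Cd160-201 starts at chr3:96814521, and Cd160-203 starts upstream at chr3:96829351. Cd160-203 lacks an exon of 132 coding bases, the length of 44 codons, so that the reading frame is kept. The last exon of Cd160-203 has 1857 bases, against 465 in Cd160-201. The skipped exon lies at chr3:96802277-96802408 on the minus strand of GRCm38. It is shown here in capitals between the last 15 bases of the exon before it and the 14 coding bases that follow, beside the junction of Cd160-203, to show which reads can tell the transcripts apart (sequences from GENCODE M21):
Cd160-201: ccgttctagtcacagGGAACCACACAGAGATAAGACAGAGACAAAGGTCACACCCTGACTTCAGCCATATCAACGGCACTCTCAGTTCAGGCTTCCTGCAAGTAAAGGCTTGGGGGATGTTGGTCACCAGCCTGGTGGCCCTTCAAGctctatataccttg
Cd160-203: ccgttctagtcacagctctatataccttg

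Because the transcripts begin at different sites, the promoters of both starts are shown from RefSeq (GRCm38.p6, minus strand, 250 bases before the start and 50 from it), with matches to the NFAT core GGAAA, on either strand, in capitals. NFAT is the calcium-dependent factor of antigen receptor signalling. The upstream promoter lies at chr3:96829302-96829601 and the downstream promoter at chr3:96814472-96814771:
Cd160, upstream start: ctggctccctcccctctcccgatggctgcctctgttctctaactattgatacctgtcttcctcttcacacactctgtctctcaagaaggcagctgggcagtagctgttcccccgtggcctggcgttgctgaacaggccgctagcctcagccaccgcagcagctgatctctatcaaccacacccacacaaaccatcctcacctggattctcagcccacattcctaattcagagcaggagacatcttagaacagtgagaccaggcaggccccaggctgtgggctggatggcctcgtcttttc
Cd160, downstream start: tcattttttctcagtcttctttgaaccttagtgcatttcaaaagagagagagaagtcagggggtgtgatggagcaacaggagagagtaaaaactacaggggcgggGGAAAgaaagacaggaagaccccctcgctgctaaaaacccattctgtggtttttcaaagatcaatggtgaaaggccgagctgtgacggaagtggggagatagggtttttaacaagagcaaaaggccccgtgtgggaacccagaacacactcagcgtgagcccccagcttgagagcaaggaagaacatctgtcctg

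The downstream promoter held 1 match and the upstream promoter 0, and GGAAA was found in 61.3% of 32851 promoters of the same length. Over the 11 promoters listed for 9 of the 10 genes, 6 held GGAAA, 1 (that of Havcr2) held the AP-1 motif TGANTCA, found in 7.8% of all promoters, and 0 held the NR4A motif AAAGGTCA, found in 1.5%. All motifs were searched on both strands, and a match is a description of the letters only.

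The share of Cd160 counts on Cd160-203 was 34.8, 21.2, 32.6, 34.1 and 14.8% in Naive 1 to 5, 17.6, 12.5, 13.9, 18.8 and 11.1% in Ag 1 to 5 and 15.1, 16.1, 15.8, 13.2 and 13.8% in Ag+Costim 1 to 5. Naive 1 to 4 were above all libraries of both antigen groups, and Naive 5 was within their range. The mean share was 27.5% ± 8.97 for Naive, 14.8% ± 3.30 for Ag and 14.8% ± 1.28 for Ag+Costim (SD, n = 5). Of the 10 genes, 4 had enough reads on more than 1 transcript to be tested for transcript usage by edgeR's diffSpliceDGE (Cd160, Cd5, Cd200 and Btla). It called 0 of these 4 in each comparison, beside 0.640% of 7501 genes in Ag against Naive, 0.947% in Ag+Costim against Ag and 1.23% in Ag+Costim against Naive, and at an unadjusted p under 0.05 it had 1 of the 4 in each comparison with Naive, Cd200, and 0 in Ag+Costim against Ag, beside 12.4% of all genes in Ag against Naive, 28.5% in Ag+Costim against Naive and 18.2% in Ag+Costim against Ag. For Cd160-203 the diffSpliceDGE adjusted p was 0.943 in Ag+Costim against Naive, whereas limma's diffSplice called the gene there (gene adjusted p = 0.0208, transcript adjusted p = 0.0356). The shares were estimated by the authors' software from short reads, and reads within exons common to both transcripts cannot tell them apart.

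**Figure D4:**
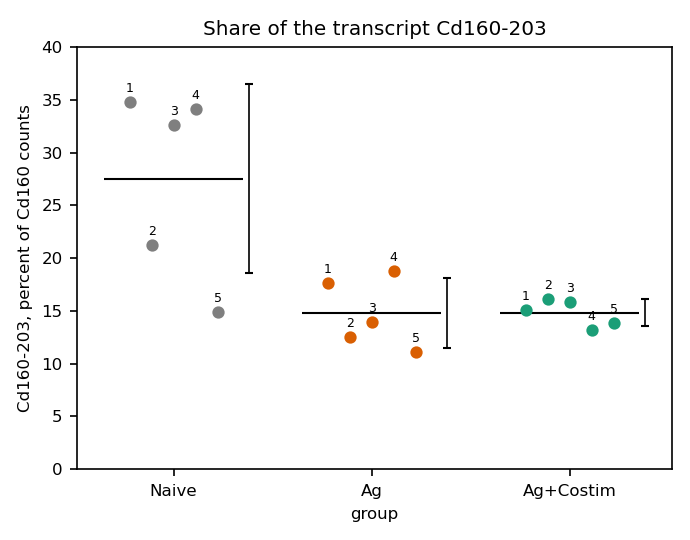
Percent of Cd160 counts assigned to the transcript Cd160-203 (vertical axis) in each library, numbered within the group. Lines are means and bars SD (n = 5). Naive 1 to 4 lie between 21.2 and 34.8%, above Naive 5 and above all Ag and Ag+Costim libraries, which lie between 11.1 and 18.8%.

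Among the other members, Btla-202 carried 94.0 to 95.8% of Btla counts and Cd5-201 carried 87.4 to 92.4% of Cd5 counts as group means. Cd200-202 was at 88.8% ± 9.83 for Naive, 80.4% ± 4.84 for Ag and 90.3% ± 1.40 for Ag+Costim. All counts of Pdcd1, Havcr2 and Tigit were on 1 transcript each.

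Genes that act with these receptors were described in 5 lists of 60 genes, 57 of them tested. Over the 5 lists, 8 of the 57 were higher and 2 lower in Ag against Naive, beside 3.05% and 3.66% of all genes. The counts in Ag+Costim against Naive were 15 higher and 11 lower, beside 21.0% and 23.6% of all genes. Among the 15 ligands and counter-receptors (13 tested), 3 were higher in Ag than in Naive, namely Pdcd1lg2 (PD-L2, 2.11 ± 0.38 on the log2 scale, edgeR adjusted p = 0.0106), Cd86 (1.99 ± 0.43, adjusted p = 0.0188) and Tnfsf14 (LIGHT, 1.12 ± 0.28, adjusted p = 0.0337). In Ag+Costim against Naive 3 were higher, among them Lgals3 (galectin-3, 2.14 ± 0.72) and Pdcd1lg2 (2.05 ± 0.38), and 2 were lower, Tnfrsf14 and Cd274 (PD-L1, -0.79 ± 0.30, adjusted p = 0.0487). PD-L2 and CD86 are typical of antigen-presenting cells. The class II genes H2-Ab1 and Cd74 were also higher in Ag than in Naive (2.44 ± 0.69 and 2.77 ± 0.69). In Ag+Costim against Naive 0 of the 3 class II genes passed (median log2 fold change 0.72). The part of antigen-presenting cell RNA in these values was not tested.

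Of the 10 related receptors, Cd28 and Icos were higher and Cd6, a relative of CD5, was lower in Ag than in Naive (-0.54 ± 0.15, edgeR adjusted p = 0.0389). In Ag+Costim against Naive, 2 were higher and 4 lower. Of these Vsir (VISTA, an inhibitory receptor of resting T cells) had the largest value, at -1.36 ± 0.23 (adjusted p = 0.00259), with 128 ± 21.8 against 368 ± 98.0 CPM. The collagen receptor gene Lair1 was higher by 1.33 ± 0.47 and Cd101 was at -1.22 ± 0.36 there (adjusted p = 0.0342 and 0.0186).

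Of the 15 cytosolic partners and proteases, 2 passed in Ag against Naive, the phosphatase gene Ptpn11 (SHP-2, 0.77 ± 0.20, edgeR adjusted p = 0.0368) and Trat1, which encodes the adaptor TRIM that binds CTLA-4 (-2.79 ± 0.57, adjusted p = 0.0152). In Ag+Costim against Naive 4 were higher and 1 lower. Trat1 was at -3.98 ± 0.60, from 55.8 ± 23.6 CPM in Naive to 3.16 ± 1.22 CPM in Ag+Costim (adjusted p = 0.00169), and Sh2d1a and Ap2m1 were higher by 0.99 ± 0.38 and 0.63 ± 0.15. Of the adenosine genes, 3 of 4 were tested, and the adenosine receptor gene Adora2a was higher in Ag+Costim than in Naive by 1.37 ± 0.25 (adjusted p = 0.00334).

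Among 16 transcription factors known to act on these genes, Nr4a2 and Batf were higher in Ag than in Naive (2.43 ± 0.55 and 0.96 ± 0.26, edgeR adjusted p = 0.0210 and 0.0387). In Ag+Costim against Naive 5 were higher and 4 lower, the largest values among these being those of Fos (-3.72 ± 1.08), Bach2 (-2.83 ± 0.48) and Nr4a2 (1.80 ± 0.54). Between Ag+Costim and Ag, edgeR called 0 of the 57 genes of these 5 lists, and 11 had an unadjusted p under 0.05, beside 26.8% of all genes. In the activation list of 6 genes, Ifng was higher and Il7r lower in Ag than in Naive (1.98 ± 0.45 and -1.996 ± 0.339), and in Ag+Costim against Naive 4 were higher and 1 lower, with Il7r at -2.82 ± 0.35 and Mki67 at 2.14 ± 0.72.

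As a description over the 15 libraries, which share groups and lanes, the genes whose log2 CPM followed each member most closely among 11316 genes were as follows. Pdcd1 was nearest to Plscr1 (Pearson r = 0.991), Capg and Zbtb32, and Ctla4 to Ptms (0.987), Casp4 and Zbtb32. Lag3 was nearest to Nrp1 (0.979), which encodes the coreceptor neuropilin-1, then Myb and Endod1, and Havcr2 to Osbpl3 (0.994), Ncald and Orc1. Cd200 was nearest to Nrn1 (0.975), Psen2 and Ildr1, and Tigit to Gbp3 (0.965), Stx11 and Smim3. Cd160 was nearest to Maged2 (0.963), Lpxn and Ms4a6d, and Entpd1 to Napsa (0.910), Trib1 and Cd38. The lowest likenesses were those of Btla, nearest to Synj2 (0.904), Evi5l and Ubash3b, and of Cd5, nearest to Rhof (0.878), Trac and Ppt1.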

How the data were processed

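Gene and transcript tables deposited by the authors held estimated counts as whole numbers, not normalised. Submitters' processing notes name HISAT2 2.1.0, SAMtools 1.9, StringTie 2.1.0, R 4.0.5 and DESeq2 1.30.1, and libraries were made from amplified cDNA and read as single ends without strand. Sequenced read counts, lane and input amount (a number without a stated unit) came from the deposited quality table, and recorded sex from the deposited sample sheet. An FPKM table was not used because the columns of Ag 1 and Naive 5 were identical in it.

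Of 81881 gene entries, 55536 matched GENCODE M21; the others held 0.0818% of counts and were left out. CPM are each library's counts scaled to the same total over matched genes. TPM were computed from transcript counts and annotated transcript lengths. Genes kept by filterByExpr (17366) were fitted with edgeR 4.0.16 in R 4.3.3 (TMM scaling, robust quasi-likelihood, 15 libraries, 1 coefficient per group, two-sided, Benjamini-Hochberg over all genes tested). The common biological coefficient of variation was 0.431. Transcript usage was tested with diffSpliceDGE and called at a gene and a transcript adjusted p under 0.05 with a share change of at least 0.1. DESeq2 1.42.0 and limma 3.58.1 (voom with quality weights, diffSplice), other scalings, filters, a replicate block, lane, recorded sex and leaving out libraries were alternatives. Scripts were tested on simulated data. No pair of libraries of the same group agreed within sampling noise (lowest chi-square per degree of freedom 5.62). Pairs from different groups were not compared in this way, including the pair with identical FPKM columns.

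The 10 members and the gene lists were chosen with earlier results of these data known. Besides the members, the text names up to 3 called genes of largest change per list and comparison, the 3 genes most correlated with each member (at least 5 CPM on average, prior count 2) and the neighbours Cd28, Icos and Cd4. Cd274, the activation genes by library and the marker genes were named after their values were seen. In the activation and B cell lists 1 gene each is not reported here. Depth sets the counting error alone, because the reads carried no molecular identifiers.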

Additional observations from a re-analysis of the deposited data

Results flagged for a closer look

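Dixon's ratio at its critical value of 0.71 for 5 libraries was applied to the CPM of each of the 10 genes and to the share of Cd160-203 in each group, 33 groups in all. In 3 of these groups 1 library stood far from the others, Naive 5 in 2 of them and Ag+Costim 3 in 1, where chance gives about 1.65 groups. Lag3 in Naive 5 was at 18.1 CPM against 0.838 to 3.22 CPM in the other Naive libraries. Tigit in Naive 5 was at 7.44 CPM against 0.633 to 2.48 CPM. Btla in Ag+Costim 3 was at 37.5 CPM against 46.3 to 48.3 CPM in the other Ag+Costim libraries. Naive 5 was also the library with 429 CPM of S100a8 and 360 CPM of Gzmb, and the part of either in these values was not tested.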

How the results depend on the processing

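Counts of members called moved as follows. In Ag vs Naive, 5 became 8 by voom with sample quality weights and 0 with no filter on low counts, with only the 10 libraries compared or with lane as a term, and leaving out 1 library gave 1 to 7. In Ag+Costim vs Ag, 0 became 1 by DESeq2 and 7 by voom, and leaving out 1 library gave 0 to 2. In Ag+Costim vs Naive, 5 became 9 by voom, 3 with no filter, 8 with only the 10 libraries compared, 1 with lane as a term, 2 in lane 3 alone and 8 leaving out both Ag 3 and Naive 5 (added after seeing the data), and leaving out 1 library gave 2 to 8. For transcript usage in Ag+Costim vs Naive, 0 became 1 by limma diffSplice. Over all genes, edgeR called 1165, 6 and 7755 in Ag vs Naive, Ag+Costim vs Ag and Ag+Costim vs Naive. DESeq2 called 2622 and 5582 in the first and second, voom 4020, 11195 and 13525, and the fit with lane as a term 0, 0 and 943. Without Ag 3 and Naive 5 the first and second were 3945 and 989. The causes of these moves were not tested. In Ag+Costim vs Ag, the 7 members called by voom stood beside calls for most of all genes tested. No count of all genes is given here with no filter, with only the 10 libraries compared or with the replicate block. Those member counts therefore cannot be set against a share of all genes.

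Library numbers did not pair the groups, since correlations of same-numbered deviations ran from -0.32 to 0.47 and not every library was nearest to its own number. With the replicate block the counts were 5, 0 and 6, the added gene being Havcr2 (adjusted p = 0.0256).

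Some differences near 0 changed sign. Pdcd1 in Ag+Costim vs Ag (0.01) was -0.0627 by library totals alone, -0.00178 with only the 10 libraries compared, -0.000538 with lane as a term, -0.0155 without Ag 3 and Naive 5, and -0.0778 to 0.116 leaving out 1 library. Cd160 in that comparison (-0.01) was 0.209 with no filter, 0.0163 with the replicate block, 0.0369 with lane as a term, 0.0506 in lane 2 alone, and -0.111 to 0.0836 leaving out 1 library. With no filter, Cd5 was 0.0537 in Ag+Costim vs Ag. Against Naive it was 0.15 in Ag+Costim under that setting, 0.0523 without Ag 3 and Naive 5, and -0.0796 to 0.0953 leaving out 1 library. Of the other single values, 527 kept direction and side of the threshold, 35 came to pass it and 63 no longer did. Scaling by library totals alone moved the median of all genes in Ag+Costim vs Naive from -0.08 to -0.23. Depth limits genes of few reads, such as Tigit and Entpd1, at 10 to 212 and 18 to 85 counts per library.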
